A study of Saccharomyces cerevisiae with 18 samples.

Results

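IMD1, IMD2, IMD3 and IMD4, the genes of the yeast IMP dehydrogenase family, were followed through 120 min without potassium together with GUA1, HPT1 and ADE12, which act next to them on IMP and GMP. These 7 genes were chosen by name, with earlier results of these arrays known, and no ratio served as a threshold. All 7 were found among the 6212 genes of the deposited table, under the systematic names YAR073W (IMD1), YHR216W (IMD2), YLR432W (IMD3), YML056C (IMD4), YMR217W (GUA1), YDR399W (HPT1) and YNL220W (ADE12). Of the 126 values that 18 arrays could give for them, 125 were present.

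The K-free cells were Saccharomyces cerevisiae BY4741, labelled wild type, in Translucent K-free medium, which holds about 15 µM residual potassium. The KCl cells were the same strain in this medium with 50 mM KCl added. Both were grown at 28 °C to an A600 of 0.6, spun down, washed and returned to their own medium for 10, 20, 40, 60 or 120 min. The sampling protocol, as worded in the labels, has the K-free cells grown in K-free medium before the wash as well, whereas the design text speaks of a sudden shortage. BY4741 carries deletions in URA3, LEU2, HIS3 and MET17, and both channels share them. A ratio holds no level, so the amount of a transcript could not be read. The deleted genes nevertheless had values: HIS3 on all 18 arrays, between -0.50 and 1.61 with a median of 0.61, and URA3 on 16 arrays, between -1.19 and 2.66. LEU2 had a value on 6 arrays and MET17 on 5. Whether each deletion takes out the whole gene was not checked, and why these genes gave values was not tested. So a value alone is not taken here as a sign of transcription, and these values are not a test of the strain label. Whether this bears on the 7 genes was not tested. Each array compared K-free and KCl cDNA, made from 8 µg of total RNA with an oligo(dT) primer and labelled with Cy3 and Cy5. There were 2 arrays at 10 min and 4 at each later time. The series states 2 independent experiments with a dye swap each, and 1 at 10 min.

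IMP is the branch point of purine nucleotide synthesis. IMP dehydrogenase, encoded by the IMD genes, oxidises IMP to XMP in the rate-limiting step towards GTP, and GMP synthase, encoded by GUA1, then makes GMP. Adenylosuccinate synthase, encoded by ADE12, takes IMP the other way, towards AMP, so the name "GTP branch" does not cover ADE12. HPT1 encodes the phosphoribosyltransferase that salvages hypoxanthine to IMP and guanine to GMP. IMD1 is interrupted in strains of the S288C background, to which BY4741 belongs, and is regarded there as a nonfunctional copy. IMD2 lies near a telomere and is known for a choice of transcription start sites that answers to GTP. The IMD genes are so alike that their probes may share signal, and their transcripts were not told apart here.

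The values are log2 ratios of K-free over KCl. The log base and the direction are not stated for the values, and both are taken as likely from the array titles. An array held 3913 to 5372 genes with a value, its median lay between -0.24 and 0.18, and the spread of all ratios widened from 20 to 60 min. Each ratio is relative to the rest of its array, so a change in total mRNA per cell would not show, and less RNA per cell cannot be told apart from fewer cells. On 1 array at 10 min the labels give Cy5 to both channels, and the dye order in its title was followed. Arrays 1 and 2 of a time point were averaged as experiment A and arrays 3 and 4 as experiment B. The array titles give each array of a time its own Exp number, and the labels do not say which arrays share an experiment. The p-values therefore measure how far the 2 experiments of a time lie apart, pooled over all times, with the lone 10 min experiment assumed to vary like the others.

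The 4 IMD genes and GUA1 were lower in K-free than in KCl cells at 60 and 120 min, HPT1 was lower at 40 and 60 min, and ADE12 was higher at 60 and 120 min. At 10 min 0 of the 7 genes passed an adjusted p of 0.05 in limma, against 0% of the 4821 genes tested. Without adjustment, 135 genes had a p under 0.05. At 20 min again 0 passed, against 0.482% of 4361 genes, 0.0229% lower and 0.459% higher. Without adjustment, 272 genes had a p under 0.05. At 40 min IMD1, IMD3, IMD4 and HPT1 were lower, 4 of 7, against 8.93% of 4703 genes called, 3.7% lower and 5.23% higher. With experiment A or experiment B of 40 min left out, none of the 4 passed.

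At 60 min all 7 passed, 6 lower and ADE12 higher, against 46.8% of 4127 genes called, 25.1% lower and 21.7% higher. At 120 min 5 were lower and ADE12 was higher, against 42.3% of 4410 genes called, 22% lower and 20.4% higher. HPT1 was the member that did not pass at 120 min. The median of the 7 genes was -0.10, -0.004, -1.27, -2.36 and -2.46 at 10, 20, 40, 60 and 120 min, against medians of all genes tested between -0.089 and 0.010. Because the genes were picked with these arrays in view, these counts say where they lie and nothing more.

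**Figure D1:**
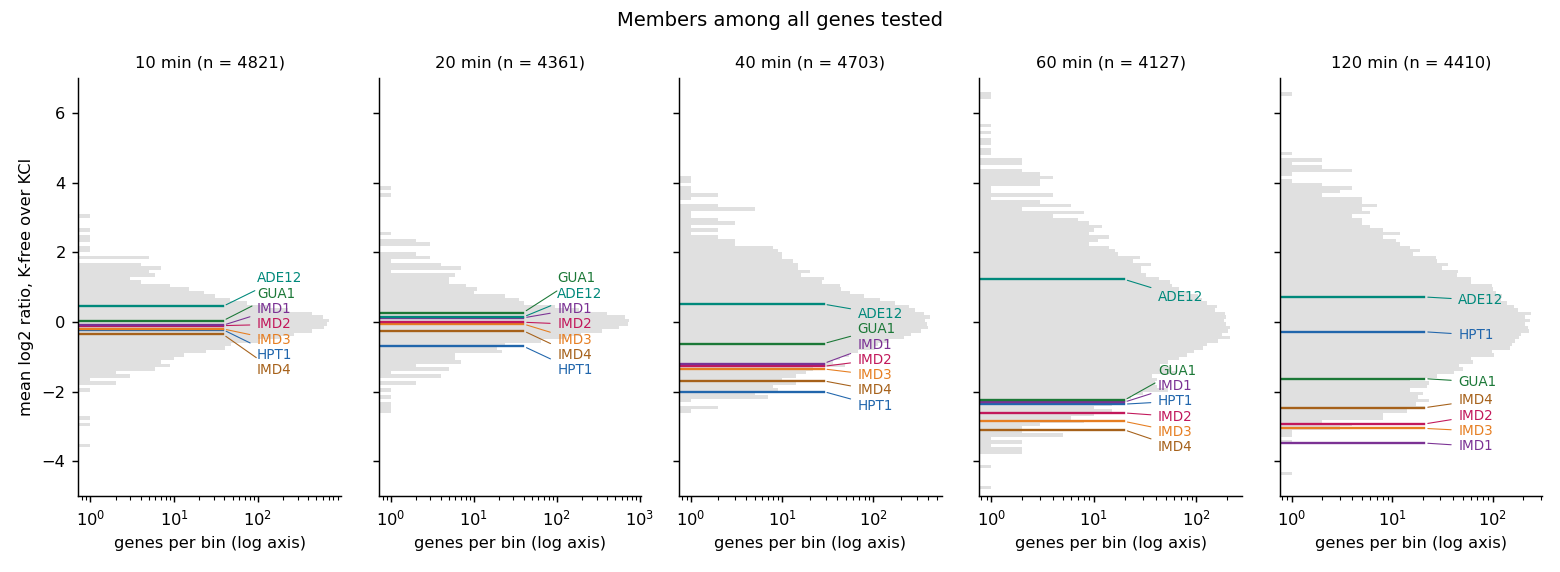
Mean log2 ratio of K-free over KCl (vertical axis) of all genes tested at each time, as grey bars of genes per bin on a log axis, with the 7 genes as coloured lines. At 10 and 20 min none of the 7 genes passed, although HPT1 at 20 min, at -0.69, has rank 80 from the bottom of 4361 genes. At 120 min IMD1, at -3.48, has rank 2 from the bottom of 4410 genes.

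IMD3 encodes one of the catalytically active IMP dehydrogenases. Its log2 ratios were -0.27 and -0.12 on the 2 arrays of 10 min, and 0.19, 0.19, -0.28 and -0.32 on arrays 1 to 4 at 20 min. At 40 min they were -1.36, -1.26, -1.28 and -1.48. At 20 min the arrays of experiment A lay above 0 and those of experiment B below it, whereas at 40 min all 4 arrays lay below -1. At 60 min the ratios were -2.63, -2.48, -3.28 and -3.02. At 120 min they were -2.48, -2.37, -3.43 and -3.94. The 8 arrays of 60 and 120 min lay wholly below the 4 of 40 min, and at 120 min experiment B was the lower by 1.26.

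IMD3 averaged -1.35 ± 0.31 at 40 min (SE, 2 experiments, adjusted p = 0.0415 in limma), -2.85 ± 0.31 at 60 min (adjusted p = 0.000785) and -3.05 ± 0.31 at 120 min (adjusted p = 0.00108). This put K-free cells 8.31-fold lower than KCl cells at 120 min, and 4.77-fold lower with arrays scaled to the same spread. From the bottom of the table it ranked 97th at 40 min, 27th at 60 min and 5th at 120 min.

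IMD2 encodes the family member whose transcription responds to guanine nucleotides. Its ratios were -0.14 and -0.060 at 10 min and 0.43, 0.061, -0.20 and -0.30 at 20 min. At 40 min they were -1.27, -1.24, -1.23 and -1.35, all within 0.12 of each other. At 60 min they were -2.35, -2.14, -2.99 and -2.96. At 120 min they were -2.17, -2.39, -3.28 and -3.87. All 12 arrays from 40 min onwards lay below 0, and experiment B lay lower than A at 60 and 120 min.

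The mean of IMD2 at 40 min, -1.27 ± 0.32, missed the threshold (adjusted p = 0.0516 in limma), although the 4 arrays lay close together. It passed at 60 min, at -2.61 (adjusted p = 0.00112), and at 120 min, at -2.93 (adjusted p = 0.00141), where K-free cells were 7.61-fold lower than KCl cells, or 4.47-fold lower with arrays scaled to the same spread.

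IMD4 encodes another active IMP dehydrogenase, and its intron holds a small nucleolar RNA. It gave -0.31 and -0.39 at 10 min. At 20 min it gave -0.063, -0.28 and -0.59 on arrays 2 to 4, and array 1 had no value. At 40 min its ratios were -1.80, -1.63, -1.61 and -1.72. These were the lowest of the IMD family on every array of that time. At 60 min they were -2.97, -2.98, -3.21 and -3.21, and at 120 min they were -1.48, -2.19, -3.002 and -3.17. The 60 min arrays lay within 0.24 of each other, while those of 120 min spread over 1.69, with experiment A higher than B by 1.25.

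IMD4 averaged -1.69 ± 0.28 at 40 min (adjusted p = 0.0179 in limma), -3.09 ± 0.28 at 60 min (adjusted p = 0.000493) and -2.46 ± 0.28 at 120 min (adjusted p = 0.00146). It had the lowest mean of the 7 genes at 60 min, 8.53-fold lower in K-free than in KCl cells, and ranked 18th from the bottom of 4127 genes. After scaling of all arrays to 1 spread the mean was -2.14.

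IMD1, the interrupted copy, gave -0.061 and -0.12 at 10 min. At 20 min it gave 0.62, 0.48, -0.27 and -0.34, so the experiments lay on opposite sides of 0. At 40 min its ratios were -1.05, -1.21, -1.12 and -1.39. It was the highest of the IMD family on arrays 1 to 3 of 40 min, and IMD2 was on array 4. At 60 min the IMD1 ratios were -2.14, -1.75, -2.83 and -2.504, and at 120 min they were -2.92, -3.23, -3.95 and -3.80. The 120 min arrays all lay below the 60 min arrays.

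IMD1 averaged -1.19 ± 0.29 at 40 min (adjusted p = 0.0484 in limma), and this call was lost without array 2, 3 or 4 of that time (adjusted p between 0.0520 and 0.0553). It averaged -2.30 ± 0.29 at 60 min (adjusted p = 0.00119) and -3.48 ± 0.29 at 120 min (adjusted p = 0.000595). The last value is 11.1-fold lower in K-free than in KCl cells, and only 1 of the 4410 genes tested was lower. With arrays scaled to the same spread the mean was -2.63, 6.19-fold lower.

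Over the whole family, all 48 values from 40 to 120 min lay below 0, between -3.95 and -1.05. At 20 min 9 of 15 values lay below 0. All 8 values of 10 min lay below 0 as well, between -0.39 and -0.060, and none of those means passed. Those 8 values come from 1 experiment. Dye swaps share RNA and the IMD probes may share signal, so these counts are not counts of independent replicates.

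**Figure D2:**
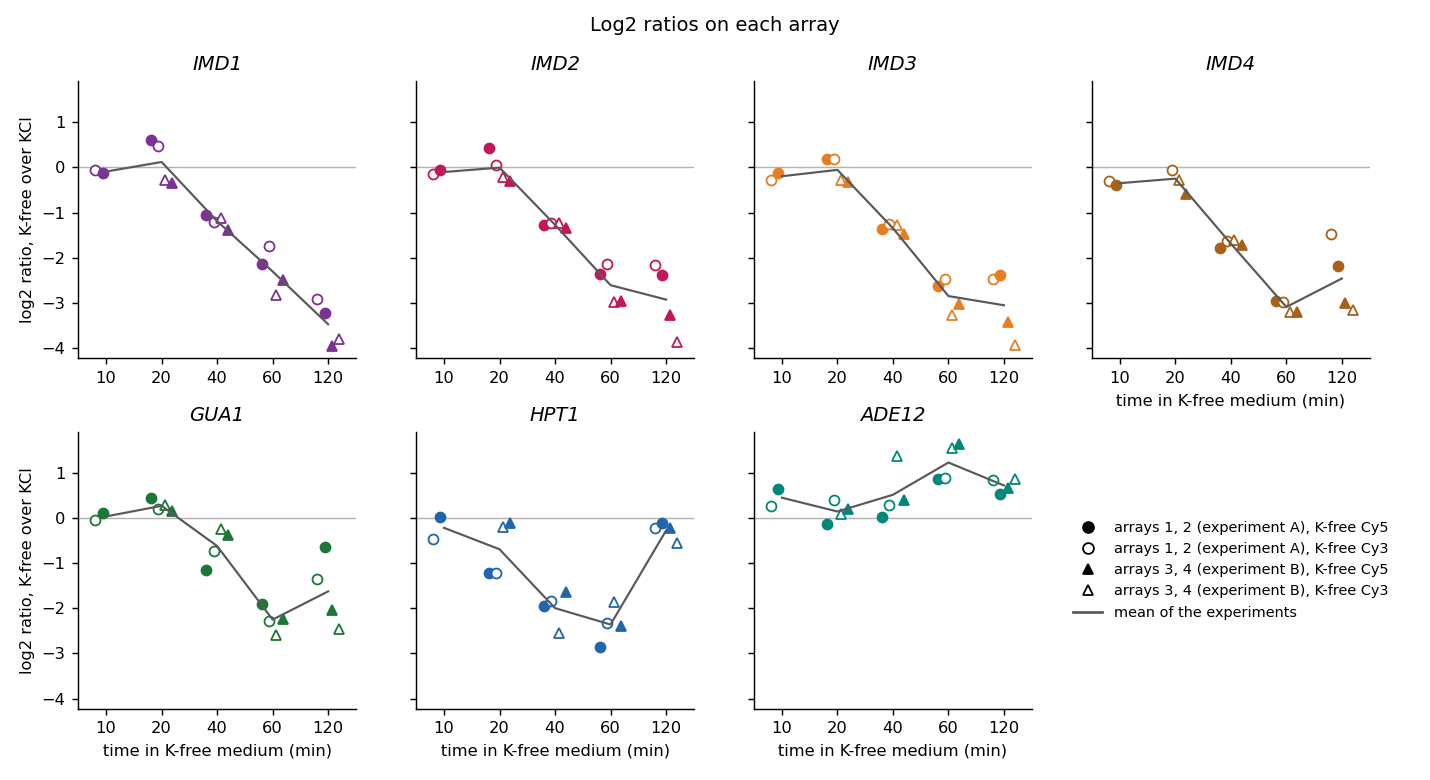
Log2 ratio of K-free over KCl on each array against time, 1 panel a gene; circles are arrays 1 and 2, triangles arrays 3 and 4, filled where the K-free RNA carried Cy5, and the line joins the means of the experiments. All IMD values from 40 min onwards lie below 0, HPT1 is back near 0 at 120 min, and ADE12 lies above 0 on all 8 arrays of 60 and 120 min.

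The family members were also set against each other on the same array. IMD3 minus IMD2 lay between -0.34 and 0.13 over 18 arrays, with a mean of -0.12 and an SD of 0.13. IMD1 minus IMD2 averaged 0.30 at 60 min, between 0.16 and 0.45 on 4 arrays. At 120 min it averaged -0.55, between -0.84 and 0.073, and 1 array lay above 0. So IMD1 stood above IMD2 on every array of 60 min and below it on 3 of 4 arrays of 120 min.

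IMD4 minus IMD2 went through 0 the other way. It averaged -0.42 at 40 min and -0.48 at 60 min, below 0 on all 8 arrays, against 0.47 at 120 min, between 0.19 and 0.70 and above 0 on all 4. How much signal the probes share was not tested.

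**Figure D3:**
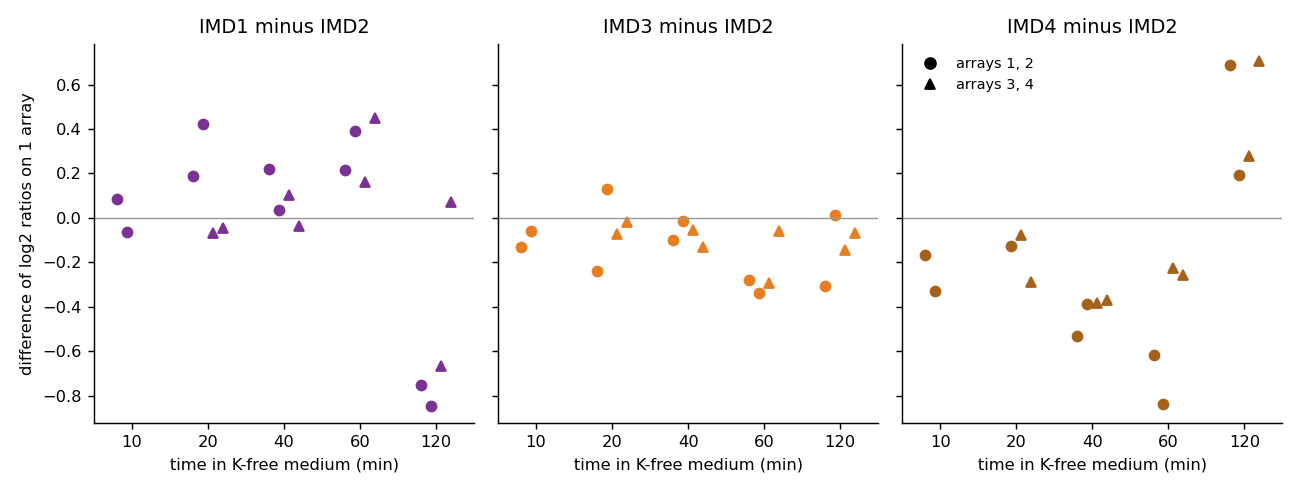
Difference of log2 ratios from IMD2 on the same array (vertical axis) against time for IMD1, IMD3 and IMD4; circles are arrays 1 and 2 and triangles arrays 3 and 4. IMD3 stays between -0.34 and 0.13, while at 60 min IMD1 lies above 0 and IMD4 below it on every array; at 120 min IMD4 lies above 0 on every array and IMD1 below it on 3 of 4.

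GUA1, which encodes the enzyme after IMP dehydrogenase, was lower in K-free cells at 60 and 120 min. Its ratios were -0.045 and 0.12 at 10 min and 0.44, 0.20, 0.30 and 0.15 at 20 min, above 0 on all 4 arrays. At 40 min they were -1.15, -0.72, -0.24 and -0.37. At that time experiment A minus B was -0.63, and the mean of -0.62 ± 0.30 did not pass (adjusted p = 0.224 in limma). At 60 min the ratios were -1.91, -2.27, -2.59 and -2.23, and at 120 min they were -1.36, -0.65, -2.04 and -2.46. The 120 min arrays spread over 1.81, with experiment B the lower.

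GUA1 averaged -2.25 ± 0.30 at 60 min (adjusted p = 0.00132 in limma) and -1.62 ± 0.30 at 120 min (adjusted p = 0.00550). Without experiment B of 120 min the later value was -1.003 and did not pass (adjusted p = 0.0651).

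At 120 min IMD2, IMD3, IMD4 and GUA1 were each lower in experiment B than in A by 1.24 to 1.298, and IMD1 by 0.80. The spread of all genes on these arrays differed in the same way: the SD over genes was 1.27 and 1.45 on the arrays of experiment B and 0.925 and 0.839 on those of A. The part of this spread in the differences between experiments was not tested.

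HPT1, the salvage gene, gave -0.47 and 0.034 at 10 min. At 20 min it gave -1.22, -1.23, -0.20 and -0.12, so that experiment A stood at -1.23 and experiment B at -0.16. The mean of -0.69 ± 0.26 did not pass (adjusted p = 0.688 in limma), and ranked 80th from the bottom of 4361 genes. At 40 min the ratios were -1.96, -1.84, -2.56 and -1.63. At 60 min they were -2.85, -2.32, -1.87 and -2.40, overlapping those of 40 min. At 120 min they were -0.22, -0.11, -0.23 and -0.56, above every array of 40 and 60 min.

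HPT1 was thus the lowest of the 7 genes at 40 min, at -1.996 ± 0.26 (adjusted p = 0.00978 in limma, 17th from the bottom of 4703 genes). At 60 min it averaged -2.36 ± 0.26 (adjusted p = 0.000856), 5.13-fold lower in K-free than in KCl cells, or 3.11-fold lower with arrays scaled to the same spread. At 120 min the mean of -0.28 ± 0.26 did not pass (adjusted p = 0.415). Between 40 and 60 min its direction of change depends on scaling: with arrays scaled to the same spread the means were -2.17 and -1.64, and with quantile normalization -2.18 and -1.70.

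ADE12, at the entry to the AMP branch, was the member that stood higher in K-free cells. It gave 0.26 and 0.64 at 10 min and -0.13, 0.40, 0.10 and 0.21 at 20 min. At 40 min its ratios were 0.018, 0.28, 1.37 and 0.40, with array 3 the highest. The 40 min mean of 0.52 ± 0.24 did not pass (adjusted p = 0.204 in limma). At 60 min the ratios were 0.86, 0.89, 1.54 and 1.64, and at 120 min they were 0.84, 0.52, 0.66 and 0.86. All 8 lay above 0, and at 60 min experiment A minus B was -0.72.

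ADE12 averaged 1.23 ± 0.24 at 60 min (adjusted p = 0.00488 in limma), 2.35-fold higher in K-free than in KCl cells, and did not pass without experiment B of that time, where it stood at 0.87 (adjusted p = 0.0746). It averaged 0.72 ± 0.24 at 120 min (adjusted p = 0.0443). That call was lost without array 1 or array 4 of 120 min (adjusted p = 0.0677 and 0.0606), and without experiment A or experiment B of that time (adjusted p = 0.121 and 0.234). It was also lost with arrays scaled to the same spread (adjusted p = 0.101) and with quantile normalization (adjusted p = 0.144). ADE12 ranked 394th from the top at 60 min and 899th at 120 min.

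Whether the ratio depended on time was asked with limma's F test over 20, 40, 60 and 120 min, in which 14.1% of 3714 genes passed. IMD1, IMD2, IMD3 and IMD4 each reached an adjusted p of 0.0298, and GUA1 and HPT1 an adjusted p of 0.0320. ADE12 did not pass (adjusted p = 0.167). None of the 7 passed when experiment A of 20 min, or experiment B of 20, 40 or 60 min, was left out, and 1 passed without experiment A of 40 min. GUA1 and HPT1 did not pass without array 2 of 60 min (adjusted p = 0.0511 and 0.0503), nor without experiment A of 60 min. GUA1 did not pass without array 1 of 120 min either (adjusted p = 0.0521). Without array 2 of 60 min only 74 genes in all passed, against 525 with every array. With arrays scaled to the same spread, IMD2, IMD3 and GUA1 passed. With quantile normalization, IMD4 and HPT1 did not pass (adjusted p = 0.0788 and 0.131 in the F test), and neither did ADE12.

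No single step between neighbouring times passed for any member, and 0% of genes passed at each step, of 4237, 4010 and 3939 tested. Before adjustment the p was under 0.05 for 382, 847 and 792 genes. From 20 to 40 min the difference was -1.44 ± 0.40 for IMD4, 19th lowest of 4237, and between -1.31 and -1.27 for the other IMD genes and HPT1. From 40 to 60 min GUA1 moved most among the 7, by -1.63 ± 0.42, and ranked 67th lowest of 4010. This step shrank under other scalings: after scaling of all arrays to 1 spread the step was -0.86 for GUA1, between -0.45 and -0.24 for the IMD genes, and 0.53 for HPT1. From 60 to 120 min HPT1 differed by 2.08 ± 0.37, 18th highest of 3939 genes (unadjusted p = 0.000657, adjusted p = 0.187 in limma). Over the same step IMD1 moved by -1.17 ± 0.41, whereas IMD4 and GUA1 each differed by 0.63.

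**Figure D4:**
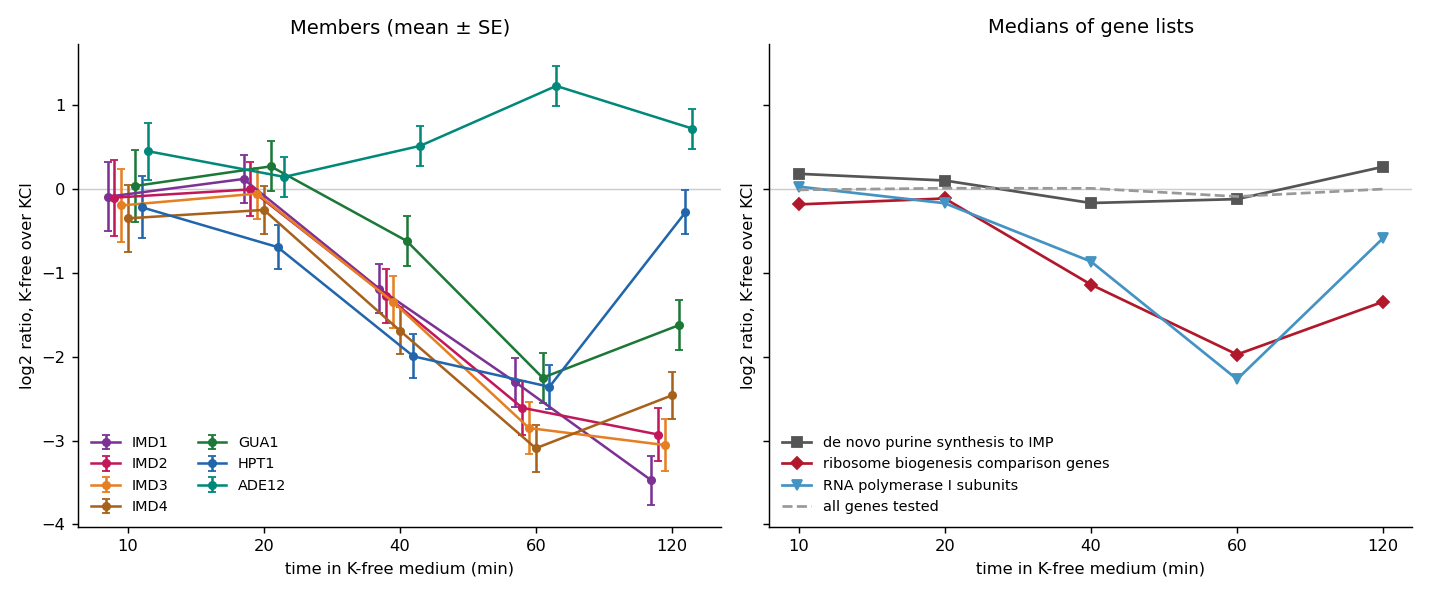
Left, mean log2 ratio of K-free over KCl (vertical axis) of each of the 7 genes against time, with limma's standard error as bars; right, medians of 3 gene lists and of all genes tested. IMD1 is at its lowest at 120 min, IMD4, GUA1 and HPT1 are at their lowest at 60 min, and the list of ribosome biogenesis genes has medians of -1.97 at 60 min and -1.34 at 120 min. With arrays scaled to the same spread, which is not drawn, HPT1 is lowest at 40 min.

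The 7 genes were compared in all 21 pairs over the 9 experiments. An exact two-sided sign-flip permutation test of the difference within an experiment was used, whose smallest possible p is 0.00391. The 9 values come from different times of the same treatment, yet the test takes them as exchangeable replicates. Early and late times enter alike, and the genes were chosen with results known. The statistic is the mean difference, so large differences at some times can carry a pair whose direction varied at others. These p-values therefore only describe these 9 values, not how steadily a difference was kept. IMD2 stood above IMD3 in 9 of 9 experiments by 0.12 (SD 0.082; exact p = 0.00391, 0.0137 adjusted over the 21 pairs). This small difference was not kept past the threshold without array 1 of 20 min (exact test, adjusted p = 0.0656). IMD4 stood below GUA1 in 9 of 9 experiments, with a mean difference of -0.77 (SD 0.29; exact adjusted p = 0.0137). IMD2 and IMD3 stood below GUA1 in 9 of 9 as well, with mean differences of -0.59 and -0.71 (exact adjusted p = 0.0137 each). IMD1 stood below GUA1 in 7 of 9, with a mean difference of -0.60, and did not pass (exact adjusted p = 0.0820).

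ADE12 minus HPT1 averaged 1.84 and was above 0 in 9 of 9 experiments (exact adjusted p = 0.0137). IMD4 minus ADE12 averaged -2.33 and was below 0 in 9 of 9 (exact adjusted p = 0.0137). IMD1, IMD2 and IMD3 stood below ADE12 in 8 of 9 experiments, with mean differences of -2.16, -2.16 and -2.28 (exact adjusted p = 0.0182 each). GUA1 minus ADE12 averaged -1.57 and was below 0 in 7 of 9 (exact adjusted p = 0.0328). In all, 10 of 21 pairs passed. No pair within the IMD family other than IMD2 and IMD3 passed, and neither did HPT1 against any IMD gene or GUA1. IMD1 and IMD2 differed by -0.0072 on average, with an SD of 0.36 and differences from -0.80 to 0.31, so a mean near 0 here stands for differences in both directions.

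Across the arrays the ratios of the family were correlated, with Pearson's r between 0.848 and 0.996. The r over 18 arrays was 0.996 between IMD2 and IMD3 and 0.966 between IMD1 and IMD2. The lowest within the family, 0.848 over 17 arrays, was between IMD1 and IMD4. It was 0.942 between IMD2 and IMD4 over 17 arrays and 0.938 between IMD3 and GUA1 over 18. HPT1 had r of 0.013 to IMD1, 0.204 to IMD2, 0.223 to IMD3, 0.374 to GUA1 and 0.474 to IMD4. ADE12 ran against the other genes, with r between -0.67 and -0.43. These arrays share 5 time points, and the dye swaps share RNA, so the values only describe these 18 arrays.

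The genes most like each member were sought among 2544 genes with a value on all 18 arrays, or 2699 for the 17 arrays with IMD4. For IMD2 they were IMD3 and then ELO3 (r = 0.981) and ELO2 (r = 0.975), which encode fatty acid elongases. For IMD3 they were IMD2, ELO3 (r = 0.984) and GAS1 (r = 0.975), a cell wall glucanosyltransferase gene. For IMD1 they were the unnamed YLR339C (r = 0.968), IMD2 and IMD3. For IMD4 they were the histone gene HTA2 (r = 0.974), CBF5, the pseudouridine synthase of small nucleolar particles (r = 0.972), and ELO3 (r = 0.971).

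For GUA1 the closest genes were NOP56, RLP7 and RBP95 (r = 0.979, 0.976 and 0.975), which encode factors of ribosome assembly. NOP56 averaged -2.03 at 60 min and -1.81 at 120 min. For HPT1 they were YOR342C, YBR242W and PNO1 (r = 0.904, 0.882 and 0.882), with means of -1.50, -1.91 and -2.07 at 60 min and 0.16, -0.22 and -0.50 at 120 min. Each of these lay nearer to 0 at 120 than at 60 min, as HPT1 did. They were picked for their likeness to HPT1 on these same arrays, so this is not a separate observation. For ADE12 the best matches were weaker: MFM1, CUB1 and PHB2 (r = 0.877, 0.854 and 0.839).

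The other lists are given beside the shares of all genes, which were 25.1% lower and 21.7% higher at 60 min, and 22% lower and 20.4% higher at 120 min. Of 16 genes of de novo purine synthesis, all tested, 3 were lower and 2 higher at 60 min, and 2 lower and 2 higher at 120 min, with medians of -0.12 and 0.27. At 40 min 1 was higher and none lower, when 5.23% of all genes were higher and 3.7% lower. These few calls are not set apart from the shares of all genes by any test. PRS1 and PRS3, which encode subunits of the enzyme that makes the ribose phosphate donor, were lower at 60 min, at -1.69 and -1.72 (adjusted p = 0.00169 and 0.00594 in limma). ADE3, a one-carbon enzyme gene, was higher on all arrays of 60 min, at 1.79 (adjusted p = 0.000475). No gene of this list stood as low at 60 min as any of the 6 lower members.

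Of 15 genes of purine salvage, interconversion and uptake, 12 were tested at 60 min, when 5 were lower and 2 higher with a median of -0.61, against -0.089 over all genes. At 120 min 3 of 13 were lower and 2 higher, with a median of -0.022. APT1, the adenine counterpart of HPT1, averaged -1.86 at 60 min (adjusted p = 0.00123 in limma), and -1.27 at 120 min (adjusted p = 0.00620), where HPT1 was not called. AAH1, the adenine deaminase gene, averaged -2.55 at 60 min (adjusted p = 0.0101). It was measured on too few arrays for a test at 120 min. ISN1, which encodes a nucleotidase that breaks down IMP, was higher at 60 min, at 1.63 (adjusted p = 0.00150).

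Below GMP, 9 of 11 genes of nucleotide kinases and enzymes that use GTP were tested at 60 min, with 3 lower, 1 higher and a median of -0.52. At 120 min 4 of 9 were lower and 2 higher, with a median of -1.02. GUK1, the guanylate kinase gene that acts directly after GUA1 and HPT1, averaged -1.22 at 60 min (adjusted p = 0.00538 in limma) and -1.52 at 120 min (adjusted p = 0.00322). GDA1, a guanosine diphosphatase of the Golgi, averaged -1.92 at 60 min (adjusted p = 0.00120). YNK1, the nucleoside diphosphate kinase gene, was higher, at 0.94 (adjusted p = 0.00521).

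Of 10 genes that regulate purine genes or IMD2 transcription, 9 were tested at 60 min, with 2 lower and 1 higher, and at 120 min 1 of 10 was lower and 1 higher. The medians were -0.39 and 0.036. NRD1, whose product helps to end transcription at the upstream IMD2 start sites, averaged -1.74 at 60 min (adjusted p = 0.00411 in limma) and -2.47 at 120 min (adjusted p = 0.00177). NAB3 and SEN1 of the same list were not called at either time. Their means were 0.19 and 0.007 at 60 min, and 0.00025 and 0.042 at 120 min. PHO2, a partner of Bas1 on purine promoters, was higher at 60 min, at 0.70 (adjusted p = 0.0271), and RPB9, an RNA polymerase II subunit gene, was lower, at -0.63 (adjusted p = 0.0162).

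Genes of ribosome assembly were the comparison list, and no test was made between this list and the others. At 40 min 7 of 27 tested were lower and 1 higher, with a median of -1.14, when 3.7% of all genes were lower, and at 60 min 23 of 26 were lower and 1 higher, with a median of -1.97, when 25.1% of all genes were lower. At 120 min 16 of 25 were lower and 1 higher. The lowest called at 60 min were YTM1, RRB1 and DBP2, which encode assembly factors, at -3.44, -3.29 and -3.26. NOP1, a nucleolar methyltransferase gene singled out after its values were seen, was the one higher gene of the list at each of these times. Of the RNA polymerase I subunit genes 7 of 8 were lower at 60 min, among them RPA34, RPA12 and RPA43 at -2.83, -2.63 and -2.45. At 120 min 4 of 7 were lower, with a median of -0.58, against -2.27 at 60 min. In none of the 6 lists did a gene pass at 10 or 20 min.

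**Figure D5:**
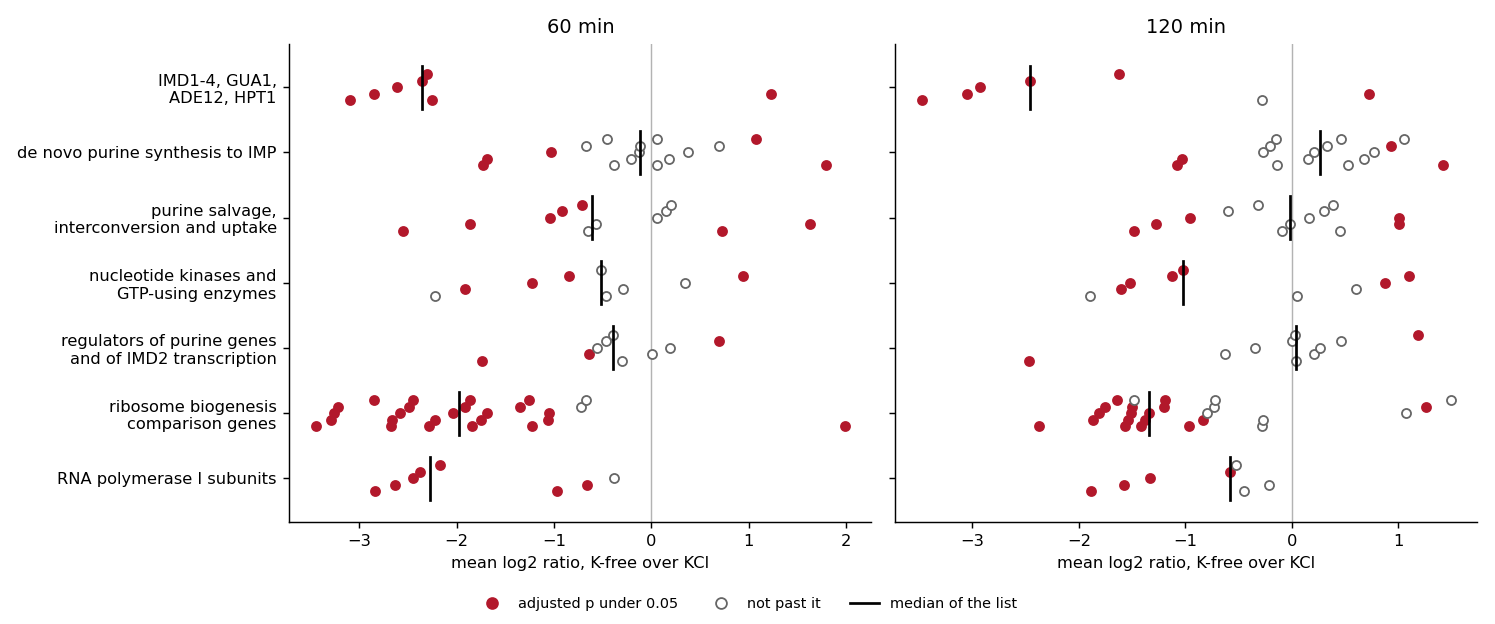
Mean log2 ratio of K-free over KCl (horizontal axis) of each gene tested at 60 and 120 min, by list; filled points passed an adjusted p of 0.05 in limma, open points did not, and vertical bars are list medians. At 60 min the 6 lower members lie among the ribosome assembly genes and below every gene of de novo purine synthesis, whose median is -0.12.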

How the data were processed

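The authors deposited 1 log2 ratio per gene and array. Per the labels' protocols, the authors dropped a spot whose diameter was below 120 µm or whose intensity was below 100 units. Background correction, normalization, log base and probe sequences were not given in the sources used here. Genes were matched by systematic name, with no coordinates and no sequence printed. Of the 7 genes 6 matched NCBI RefSeq's R64 table, and IMD1 is the usual name of YAR073W. YAR075W, the other piece of IMD1, was not analysed here. The number of per-sample columns not used is 0.

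Dye swaps were averaged into 9 experiment values, and limma 3.58.1 in R 4.3.3 fitted a mean for each time over all genes (residual 4 and prior 3.49 degrees of freedom), with Benjamini-Hochberg adjustment over all genes tested at a time. A gene was tested with values on at least 3 of 4 arrays, or on both at 10 min. The threshold was an adjusted p of 0.05. The number of arrays limits the precision. The code was tested on simulated data. The arrays of an experiment correlated at 0.25 (limma's consensus correlation).

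The 7 genes and the 6 lists were chosen with earlier results of these data known. Named from each list were the 3 genes with the largest means at 60 min among those called, and, for each of the 7 genes, the 3 most alike by Pearson's r. Genes next to the IMD genes were also named, and NOP1, NAB3 and SEN1 were named after their values were seen. Alternatives covered the pairing of arrays, the replicate unit, dye, scaling, missing values, the prior and each array or experiment left out.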

Additional observations from a re-analysis of the deposited data

Results flagged for a closer look

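The log2 ratio of K-free over KCl differed among 20, 40, 60 and 120 min by limma's F test, adjusted over all genes, for 6 of the 7 genes: the adjusted p was 0.0298 for IMD1, for IMD2, for IMD3 and for IMD4, and 0.0320 for GUA1 and for HPT1. For IMD1 the means at these times were 0.12, -1.19, -2.30 and -3.48, the lowest at the last time. For HPT1 they were -0.69, -1.996, -2.36 and -0.28, the lowest at 60 min. With arrays scaled to the same spread HPT1 was lowest at 40 min instead, at -2.17 against -1.64 at 60 min. Background was 14.1% of 3714 genes. In 27 groups of 4 arrays, 1 for each gene and time with a full set, Dixon's test found 0 outlying arrays. Chance alone gives about 1 in 20 groups where the 4 values are independent. Dye swaps share RNA and are not independent, so this count says little about single arrays.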

How the results depend on the processing

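The 4 members called at 40 min became 7 with the other pairing of arrays (1 with 3, 2 with 4), with arrays as replicates, with dye added to that, and with the array number as a replicate block, and 0 without experiment A or without experiment B of 40 min. All genes called at 40 min numbered 420, between 320 and 1340 under these settings with all arrays kept, and 28 and 39 without an experiment. The F test called 6 members, 3 with arrays scaled to the same spread, 0 without experiment A of 20 min or experiment B of 20, 40 or 60 min, and 1 without experiment A of 40 min; over all genes it called 525, between 168 and 1931 with all arrays kept, 74 without array 2 of 60 min and 0 without experiment A of 20 min. Between neighbouring times, where 0 members passed, the other pairing of arrays gave 6 (20 to 40 min), 6 (40 to 60 min) and 3 (60 to 120 min), each array as a replicate gave 5, 5 and 2, the experiment as a random block 3, 5 and 2, the dye term 5, 5 and 2, and the replicate block 5, 6 and 2. Over all genes these steps called 0, and up to 192, 807 and 703. Genes called at 20 min numbered 21, and up to 376 with quantile normalization. Without an experiment of 20 min there were 1 and 3. At 60 min they numbered 1932, against 1145 with quantile normalization and 1102 without experiment B. At 120 min they numbered 1867, against 646 with that time fitted alone and 576 without experiment B. At 10 min they numbered 0, and 115 with quantile normalization. Arrays as replicates, the dye term and the replicate block count the dye swaps of an experiment as replicates. If arrays 1 and 2 share an experiment, the other pairing averages across the 2 experiments of a time. Calls gained under those settings are therefore not taken as results here. The cause of these shifts was not tested.

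Whether the array numbers pair the samples could not be decided. Deviations of same-numbered arrays correlated between -0.34 and 0.41, and those of array 3 between 0.0044 and 0.41. Same-numbered arrays of 40 and 120 min had opposite dye orders, so a dye effect could lower these correlations. Of 623 log2 ratios of members recomputed, 574 kept their direction and side of the threshold, 18 gained and 23 lost a call, and 8 uncalled ones moved. IMD2 at 40 min, not called, passed under 10 alternatives, among them arrays scaled to the same spread (adjusted p = 0.0132). IMD1 at 40 min lost its call with median centring (adjusted p = 0.0539), ADE12 and GUA1 at 120 min with that time fitted alone (adjusted p = 0.0981 and 0.0591), and GUA1 minus ADE12 in 8 settings (exact adjusted p between 0.0597 and 0.0656). No called value changed sign. Weak spots gave no value, so nothing is known of transcripts below the intensity limit, and 2 experiments per time limit every p-value.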

Other observations

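IMD2 and IMD1 each sit beside an acid phosphatase gene that stood on the other side of 0. PHO12, next to IMD2 in the annotation, was higher in K-free than in KCl cells at 20, 40, 60 and 120 min, with means of 1.62, 1.94, 1.80 and 1.64 (adjusted p = 0.0146, 0.00335, 0.000694 and 0.00146 in limma). PHO11, the next named gene by systematic number to IMD1, was higher at the same times, with means of 1.57, 1.95, 1.67 and 1.67 (adjusted p = 0.0258, 0.00444, 0.00115 and 0.00171). All 4 arrays of each of these times lay above 1 for both genes. The PHO11 and PHO12 sequences are alike, so their probes may share signal too.

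On the other side of IMD2, YHR218W did not pass at any time, with a mean of 0.17 at 60 min and -0.82 at 120 min. Next to IMD1, YAR074C averaged -0.59 at 60 min (adjusted p = 0.0364 in limma) and 0.20 at 120 min (adjusted p = 0.427). Beside IMD3, CNA1, a calcineurin subunit gene, averaged -1.03 at 60 min (adjusted p = 0.00571) and ATG23 did not pass. Beside IMD4, SPC2, a signal peptidase subunit gene, averaged -0.87 at 60 min (adjusted p = 0.00368), and CMP2 did not pass at the times tested. None of these 8 neighbours had a mean at 60 min as low as the IMD gene beside it.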
